A study of Mus musculus with 2 samples.

Results

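The T cell receptor variable (V) genes were described in scRNA sequencing of sorted live CD45+ cells from liver tumors of the lenvatinib-resistant Trp53KO/MYCOE mouse model of HCC. Tumors were induced in male C57BL/6 J mice of 6 to 8 weeks by hydrodynamic tail vein injection of plasmids for human MYC and for a guide against Trp53, together with the sleeping beauty transposase, a route that reaches hepatocytes. Lenvatinib was begun 12 days after the plasmids, and after 25 days of it the mice of both groups went on with lenvatinib at 30 mg/kg, alone in the lenvatinib group and with palbociclib, a CDK4/6 inhibitor, at 100 mg/kg in the combo group. There was 1 library per treatment, and the number of mice behind each was not given in the sources used here, so no difference between the libraries has a replicate check and treatment, mouse and library cannot be told apart.

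A gene was a member when its symbol started with Trav, Trbv, Trgv or Trdv and it held at least 5 UMIs over both libraries. Of 170 such symbols among 32285 genes, 100 were members, namely 72 of 128 Trav, 23 of 35 Trbv, 4 of 6 Trdv and the 1 Trgv gene. The remaining symbols held 0 UMIs in 58 cases and 1 to 4 UMIs in 12. The other gamma V genes carry symbols that start with Tcrg-V and are no members, so that Trgv2 alone stands for its locus. The members held 12741 UMIs, 3961 in Trav, 2961 in Trbv, 3397 in Trgv2 and 2422 in Trdv. In annotation, 95 are V genes and 5 are V pseudogenes. The Trbv members lie on chromosome 6, the Trav and Trdv members on chromosome 14, where they share 1 locus, and Trgv2 on chromosome 13.

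Each T cell builds its antigen receptor from gene segments that are cut and joined while the cell matures in the thymus. A V segment makes up most of the part that meets antigen, and a cell of the alpha-beta lineage carries 1 rearranged beta chain gene (Trbv) and 1 or 2 alpha chain genes (Trav). Cells of the gamma-delta lineage use gamma (Trgv) and delta (Trdv) segments instead, and some Trav segments, those with "dv" in the symbol, can serve either chain. Because all daughters of a T cell inherit its joined segments, V gene usage in a tumor shows whether a group of T cells draws on the whole repertoire or on a few segments. A V gene UMI alone shows neither a productive chain nor a clone, since the joined junction was not read here.

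T cells were taken as cells with at least 2 UMIs of Cd3d, Cd3e and Cd3g together, at most 6000 genes and at most 25% mitochondrial UMIs. This gave 7521 T cells of 14509 barcodes under lenvatinib and 5728 of 11989 under combo, with a median of 6391 and 5910 UMIs. The libraries held 98107503 and 93583402 UMIs and shared 49 barcode sequences, which 25 and 23 of the T cells carried. CD8 cells had a UMI of Cd8b1 and none of Cd4, Foxp3 or Trdc (3320 under lenvatinib and 2643 under combo). They were split by a UMI of Pdcd1, the inhibitory receptor PD-1, and of Gzmk, a granzyme of memory and dysfunctional CD8 cells. CD4 cells (462 and 601), Foxp3 cells (413 and 57) and Trdc cells (675 and 385) were cut in the same manner, and 2173 and 1765 T cells held none of these markers. Trac, the alpha chain constant gene, had a UMI in 91.5% and 93.3% of CD8 cells, and Ikzf2 was seen in 95.9% and 87.7% of Foxp3 cells. The Trdc class was mixed, since Ncr1, a receptor of NK cells, had a UMI in 32.9% and 22.6% of its cells and Trac in 37.2% and 39.0%. S100a8, a gene of neutrophils, had a UMI in 96.6% of CD8 cells under combo against 56.0% under lenvatinib. Whether these UMIs came from free RNA or from doublets was not tested.

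The sequences of the 6 V genes on which the results turn are given first, each as the last 240 bases of its V exon, 5′ to 3′, from the GENCODE M21 transcripts of build GRCm38, which is the mm10 build of the files. Capitals mark the end of the exon from the codon of the conserved cysteine onwards, the part that runs into the junction. In Trgv2 and Trdv4 capitals also mark the longest run of A, 7 and 6 bases, since A runs inside a transcript can be caught by the oligo-dT primer of a 3′ assay. They lie at chr6:41119125-41119364 (Trbv12-2, plus strand), chr6:41048589-41048828 (Trbv3, plus), chr6:41188738-41188977 (Trbv20, plus), chr14:52428637-52428876 (Trav1, plus), chr13:19336573-19336812 (Trgv2, minus) and chr14:54075276-54075515 (Trdv4, plus).
Trbv12-2: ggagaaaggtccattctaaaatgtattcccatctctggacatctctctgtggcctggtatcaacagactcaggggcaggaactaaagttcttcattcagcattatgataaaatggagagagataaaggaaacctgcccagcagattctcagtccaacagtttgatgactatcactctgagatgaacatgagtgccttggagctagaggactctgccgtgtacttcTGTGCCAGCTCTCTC
Trbv3: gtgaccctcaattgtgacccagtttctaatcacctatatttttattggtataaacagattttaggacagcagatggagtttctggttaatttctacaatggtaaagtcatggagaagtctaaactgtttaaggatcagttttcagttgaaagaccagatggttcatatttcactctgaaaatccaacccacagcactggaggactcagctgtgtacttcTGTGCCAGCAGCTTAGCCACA
Trbv20: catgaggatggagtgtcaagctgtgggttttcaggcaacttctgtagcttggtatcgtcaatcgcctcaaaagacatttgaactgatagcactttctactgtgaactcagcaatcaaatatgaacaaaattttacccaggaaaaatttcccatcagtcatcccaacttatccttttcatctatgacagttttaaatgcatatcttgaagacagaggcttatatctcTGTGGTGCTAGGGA
Trav1: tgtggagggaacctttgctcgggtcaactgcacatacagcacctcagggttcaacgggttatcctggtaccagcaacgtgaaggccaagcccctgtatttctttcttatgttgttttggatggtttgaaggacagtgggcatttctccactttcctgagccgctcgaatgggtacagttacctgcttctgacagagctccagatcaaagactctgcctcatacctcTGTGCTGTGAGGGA
Trgv2: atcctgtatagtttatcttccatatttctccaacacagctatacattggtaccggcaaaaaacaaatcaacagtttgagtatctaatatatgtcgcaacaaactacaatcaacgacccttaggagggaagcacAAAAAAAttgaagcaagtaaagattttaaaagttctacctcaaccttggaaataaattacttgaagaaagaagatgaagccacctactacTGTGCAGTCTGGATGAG
Trdv4: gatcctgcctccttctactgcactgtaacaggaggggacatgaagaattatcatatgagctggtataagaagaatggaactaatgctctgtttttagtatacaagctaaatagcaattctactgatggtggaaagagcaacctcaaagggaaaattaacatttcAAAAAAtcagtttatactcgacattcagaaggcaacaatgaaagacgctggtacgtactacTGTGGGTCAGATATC

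A V gene can be told from its neighbours only as far as its sequence differs. No Trbv member had a listed copy at 97% identity or more over the V exon, whereas 46 of the 72 Trav members did, because the Trav locus of this strain holds repeated blocks. The most common alpha genes of these tumors, Trav16n and Trav16, together with Trav16d-dv11, show how close these copies are. Over the 301 bases of their V exons they differed at 6 positions, 5 of which fall in the 240 bases printed here with the differing positions in capitals (chr14:53743466-53743705, chr14:53351382-53351621 and chr14:53047582-53047821, all on the plus strand).
Trav16: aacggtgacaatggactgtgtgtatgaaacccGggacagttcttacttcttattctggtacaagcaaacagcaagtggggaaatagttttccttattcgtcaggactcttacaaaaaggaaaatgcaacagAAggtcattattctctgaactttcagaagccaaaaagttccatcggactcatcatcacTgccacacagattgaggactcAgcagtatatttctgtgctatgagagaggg
Trav16n: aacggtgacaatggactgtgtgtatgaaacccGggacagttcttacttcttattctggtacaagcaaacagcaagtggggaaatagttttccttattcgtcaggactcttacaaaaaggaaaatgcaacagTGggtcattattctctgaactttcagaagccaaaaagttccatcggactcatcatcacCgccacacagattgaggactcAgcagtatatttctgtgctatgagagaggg
Trav16d-dv11: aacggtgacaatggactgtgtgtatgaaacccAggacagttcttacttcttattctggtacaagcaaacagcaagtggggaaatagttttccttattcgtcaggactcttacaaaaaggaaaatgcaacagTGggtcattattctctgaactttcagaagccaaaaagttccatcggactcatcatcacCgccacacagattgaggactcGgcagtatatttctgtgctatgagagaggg
Trav16 and Trav16n were seen together in only 3 cells under lenvatinib, of 161 with Trav16 and 163 with Trav16n, and in 2 cells under combo, of 73 and 118. Usage within such groups of near-identical Trav genes depends on how reads were assigned and is uncertain.

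V gene transcripts were sparse in this 3′ assay. With all UMIs, 30.7% of T cells under lenvatinib and 32.5% under combo had a UMI of a Trav or Trbv member. When each cell was thinned to 2000 UMIs, so that depth was the same in every cell, a Trbv UMI was found in 401 of 7117 T cells under lenvatinib (5.63%) and in 402 of 5583 under combo (7.20%). Their ratio of combo to lenvatinib was 1.28, and the ends of both exact 95% intervals, set against each other, gave 1.05 to 1.55. All intervals are exact Clopper-Pearson intervals and cover counting error only. Where a count is 0, the share it allows is given separately, as 3 counts of the total. Thinning left out 404 and 145 shallower T cells, and without it the Trbv shares were 16.1% and 18.8%. For Trav the thinned shares were 7.52% and 7.18%, for Trgv2 5.92% and 5.87%, and for Trdv 1.81% and 1.90%. Over all T cells together only Trbv thus lay apart between the libraries. Within each class its thinned range held 1, as in CD8 cells (1.19, 0.92 to 1.54). Trdv lay apart in Trdc cells (1.65, 1.08 to 2.50) and Trgv2 in CD8 cells with Pdcd1 (0.53, 0.33 to 0.85). The part of class sizes in the Trbv ratio over all T cells was not tested. Trbv was near 0 in cells that should lack it. In a gate of B cells, a Trbv UMI was found in 1 of 494 thinned cells under lenvatinib and in 0 of 568 under combo, and in a gate of neutrophils in 1 of 525 and 2 of 2081. Trdv was not near 0 everywhere outside the T cells, with 6.01% and 8.02% in a gate of NK cells without Cd3 UMIs and 0.381% and 1.30% in the neutrophil gate. The median depth before thinning was 3396 and 3594 UMIs in the B cell gate and 2753 and 6317 in the neutrophil gate. In Foxp3 cells Trbv was in 13 of 389 thinned cells under lenvatinib (3.34%, 1.79 to 5.65) and in 6 of 52 under combo (11.5%, 4.35 to 23.4), with overlapping intervals.

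**Figure D1:**
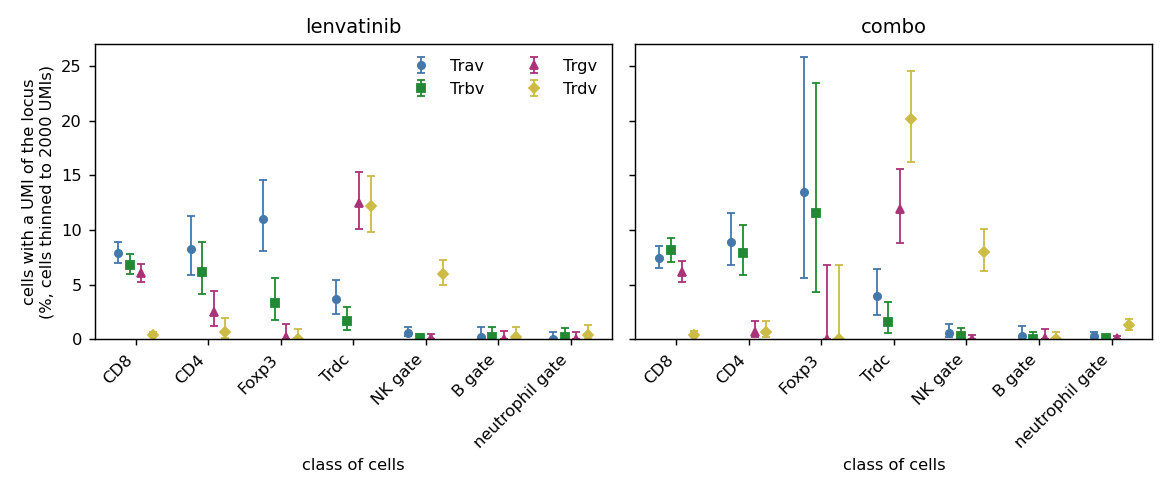
Percent of cells with a UMI of each V gene locus after thinning every cell to 2000 UMIs, by class of cells and library, with exact 95% intervals as bars. Trav and Trbv were at least 3.34% in CD8, CD4 and Foxp3 cells, Trgv and Trdv were highest in Trdc cells among the classes drawn, and all but Trdv were under 1% in the NK, B cell and neutrophil gates.

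Usage of a gene is given from here on as the cells with a UMI of that gene in percent of the cells of the class with a UMI of any member of its locus, without thinning. A share of this kind does not move with how many cells have any V UMI at all. It is defined only within a V gene locus. Counts of genes with intervals apart therefore have no share over all genes beside them.

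In CD8 cells, 682 Trbv-positive cells under lenvatinib and 571 under combo used 23 and 22 of the Trbv genes, and 3 genes stood apart between the libraries. Trbv12-2 led under lenvatinib with 135 cells (19.8%) and was in 109 cells under combo (19.1%), a ratio of combo to lenvatinib of 0.96 (range 0.69 to 1.34). Trbv3 was in 72 cells under lenvatinib (10.6%) and in 113 under combo (19.8%), 1.87 times its lenvatinib share (1.27 to 2.79), and became the most common beta gene there. Trbv20 went the other way, from 54 cells (7.92%) to 15 (2.63%), a ratio of 0.33 (0.14 to 0.72). Trbv13-3 was in 50 cells under lenvatinib (7.33%) and in 16 under combo (2.80%), a ratio of 0.38 (0.17 to 0.82). Among the 16 Trbv genes with at least 10 cells in a library, these were the 3 whose intervals did not overlap, 1 higher and 2 lower under combo. Cycling cells differed as well, with a UMI of the proliferation gene Mki67 in 21.4% of CD8 cells under lenvatinib and 7.11% under combo. Without cells that had Mki67 or Top2a, the ratio was 1.96 (1.20 to 3.24) for Trbv3 and 0.23 (0.071 to 0.68) for Trbv20, whereas that of Trbv13-3 was 0.44 with a range that held 1 (0.17 to 1.07). The ratio ranges of the rest all held 1, among them Trbv12-1 with 24 and 35 cells (1.74, 0.83 to 3.71), Trbv14 with 26 and 31 cells (1.42) and Trbv1 with 31 and 14 cells (0.54). Across the Trbv genes the usage of both libraries had a Spearman correlation of 0.785 in CD8 cells and 0.921 in all T cells, which is a description over 23 genes that are not independent replicates.

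**Figure D2:**
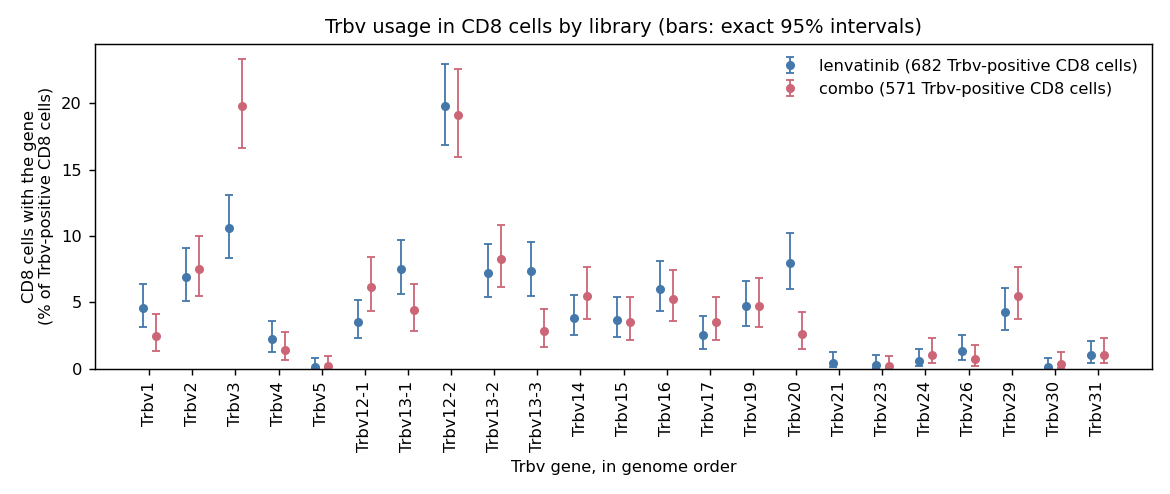
Usage of each Trbv gene in CD8 cells, in percent of Trbv-positive CD8 cells, with genes in genome order and exact 95% intervals as bars. Trbv3 reached 19.8% under combo against 10.6% under lenvatinib, whereas Trbv20 and Trbv13-3 were lower under combo, and Trbv12-2 was 19.8% and 19.1% in both libraries.

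Under combo, Trbv3 was most common in cells with Gzmk and without Pdcd1. In these cells Trbv3 was in 21 of 158 Trbv-positive cells under lenvatinib (13.3%, 8.42 to 19.6) and in 56 of 194 under combo (28.9%, 22.6 to 35.8). Without cells that had Mki67 or Top2a the shares were 15.1% and 29.1%, with intervals that overlapped. In cells with neither gene its usage was 10.7% (44 of 412) under lenvatinib and 15.9% (37 of 232) under combo, with overlapping intervals. Of all CD8 cells with Trbv3 under combo, 49.6% had Gzmk and no Pdcd1, whereas 34.0% of the Trbv-positive and 35.0% of all CD8 cells of that library did. In cells with both Pdcd1 and Gzmk, Trbv3 was in only 2 of 81 cells under lenvatinib and in 19 of 112 under combo (17.0%), and these intervals did not overlap either.

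Under lenvatinib, Trbv20 was most common in cells with both Pdcd1 and Gzmk. There it was in 18 of 81 Trbv-positive cells with both Pdcd1 and Gzmk (22.2%, 13.7 to 32.8), next to Trbv12-2 with 23 (28.4%) and Trbv13-3 with 12 (14.8%). Of the 54 CD8 cells with Trbv20, 33.3% had both Pdcd1 and Gzmk. This subset held 11.9% of the Trbv-positive and 8.52% of all CD8 cells of the library. Under combo the same subset was led by Trbv12-2 with 23 of 112 cells (20.5%), Trbv3 with 19, Trbv2 with 14 (12.5%) and Trbv12-1 with 12 (10.7%). Trbv12-1 was in none of the 81 cells under lenvatinib, and its 2 intervals did not overlap. It held at least 10 cells of this subset under combo only, and it entered the comparison through that library. The subset with Pdcd1 and no Gzmk was small, with 31 and 33 Trbv-positive cells, and Trbv12-2 led it with 9 cells in each library.

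**Figure D3:**
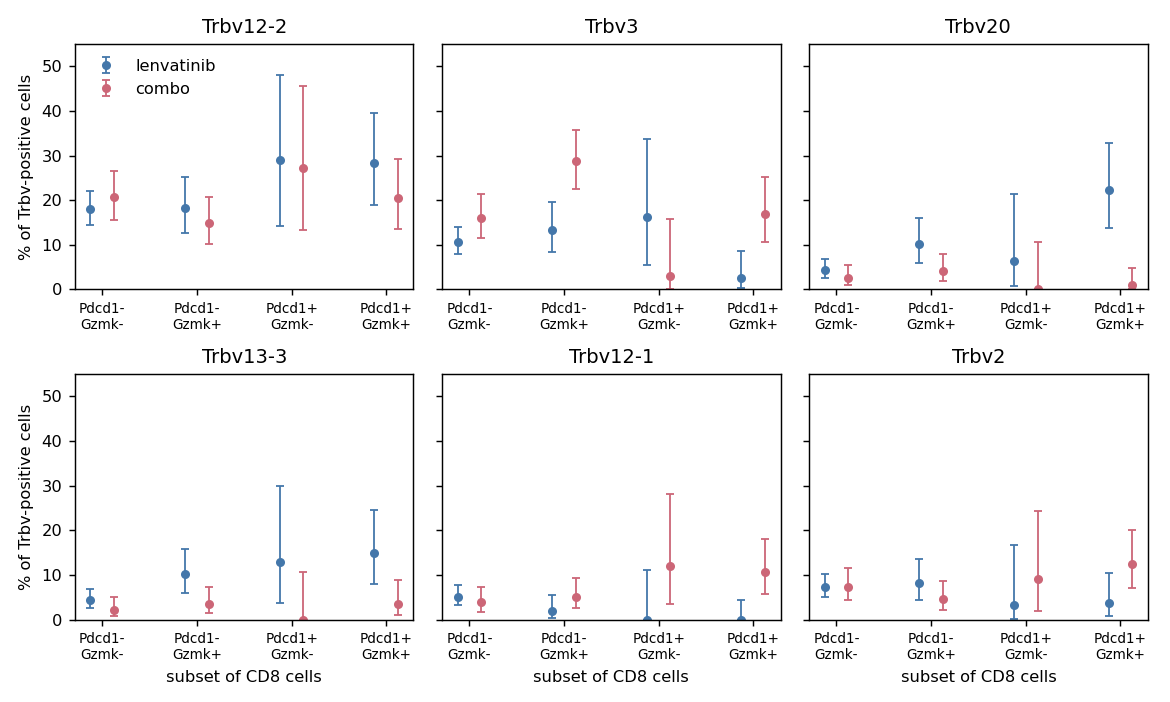
Usage of 6 Trbv genes, in percent of Trbv-positive cells, in CD8 cells split by a UMI of Pdcd1 and of Gzmk, with exact 95% intervals as bars. Trbv20 and Trbv13-3 rose to 22.2% and 14.8% in Pdcd1+Gzmk+ cells under lenvatinib, and Trbv3 reached 28.9% in Pdcd1-Gzmk+ cells under combo.

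When CD8 cells were divided by Pdcd1 alone, 112 Trbv-positive cells with and 570 without Pdcd1 were compared under lenvatinib. Trbv20 was in 20 cells with Pdcd1 (17.9%) and in 34 without (5.96%), a ratio of 2.99 (1.37 to 6.29). Trbv13-3 was in 16 (14.3%) and 34 (5.96%), a ratio of 2.39 (1.02 to 5.32). These were the 2 genes of 16 whose intervals lay apart, and no gene was lower in Pdcd1+ cells with intervals apart. Mki67 was seen in 35.7% of Pdcd1+ and 19.4% of Pdcd1- CD8 cells of this library. Without cells that had Mki67 or Top2a, the ratio was 2.51 (0.74 to 7.41) for Trbv20, a range that held 1, and 3.48 (1.12 to 9.84) for Trbv13-3. The range of Trbv13-3 also held 1 without doublets (2.35, 0.94 to 5.49) and without cells with 2 Trbv genes (1.98, 0.75 to 4.80). At the other end Trbv12-1 and Trbv17 had 0 cells of 112 with Pdcd1, which allows a usage of up to 2.68%, against 24 and 17 cells without Pdcd1. Under combo, with 145 and 426 Trbv-positive cells, no interval lay apart among 15 genes. Trbv12-1 had the highest ratio there, with 16 cells (11%) against 19 (4.46%), 2.47 (0.94 to 6.39), followed by Trbv2 with 17 (11.7%) against 26 (6.10%), 1.92. Trbv20 was in 1 Pdcd1+ cell (0.690%) and in 14 Pdcd1- cells (3.29%), a ratio of 0.21 with the wide range of 0.0032 to 2.09. Trbv3 was in 20 Pdcd1+ cells (13.8%) and in 93 Pdcd1- cells (21.8%), a ratio of 0.63 (0.33 to 1.14).

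How even the usage was is given by the effective number of genes, the inverse Simpson index, which is the number of equally used genes that would give the same chance of drawing the same gene from 2 cells. For Trbv it was 12.4 in CD8 cells under lenvatinib and 10.4 under combo. Under lenvatinib the lowest value was in Pdcd1+Gzmk+ cells, 7.02, where 3 genes made up 59.6% of the detections. Under combo that subset had 10.5, and the lowest value was in Pdcd1-Gzmk+ cells, 8.25, where Trbv3 led. CD4 cells had 12.7 and 13.3, and CD8 cells with neither Pdcd1 nor Gzmk had 13.6 and 11.4. By this index the CD8 subset with the lowest value was not the same in the libraries, and these numbers carry no interval. By the exponential of the Shannon entropy, not corrected for cell number, it was Pdcd1+Gzmk- cells in both, at 8.67 and 9.45.

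Alpha chain usage was spread over more genes. In CD8 cells, 741 Trav-positive cells under lenvatinib and 494 under combo gave effective numbers of 23.9 and 25.4. Trav16n led with 98 cells (13.2%) and 71 cells (14.4%), followed by Trav16 with 92 (12.4%) and 44 (8.91%), a ratio of 0.72. The gene that differed most was Trav1, which was in 36 cells under lenvatinib (4.86%) and in 1 under combo (0.202%), a ratio of 0.042 (0.00077 to 0.33). Trav15-1-dv6-1 also had intervals apart and was lower under combo, with 16 and 1 cells. Trav2, named after its values were seen, was in 1 and 14 cells. Of the 25 Trav genes with at least 10 cells in a library it was the only one higher under combo with intervals apart. Trav1, Trav15-1-dv6-1 and Trav2 passed this limit only through the library where they were higher, so their separation is partly built into the choice. Trav19 with 17 and 22 cells (1.94), Trav6-7-dv9 with 25 and 26 (1.56), Trav14-2 with 23 and 5 (0.33) and Trav12-2 with 37 and 11 (0.45) had overlapping intervals.

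Trav1 was more common in Pdcd1+ than in Pdcd1- cells under lenvatinib. It was in 15 of 87 Trav-positive Pdcd1+ CD8 cells (17.2%) and in 21 of 654 Pdcd1- cells (3.21%), a ratio of 5.37 (2.05 to 13.4). It led the Pdcd1+Gzmk+ cells of that library with 13 of 62 (21%), where the effective number of Trav genes was 10.9 against 23.2 in the same subset under combo. Trav7-5, named after its values were seen, was the other alpha gene with intervals apart by Pdcd1 under lenvatinib, in 10 of 87 and 19 of 654 cells (3.96, 1.26 to 11.4). Under combo Trav1 was in 0 of 107 Pdcd1+ cells, which allows up to 2.80%, and none of 13 Trav genes had intervals apart. When 2 UMIs of a gene were required, the Trav1 ratio by Pdcd1 under lenvatinib was 3.51 with a range that held 1 (0.37 to 22.1).

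Both chains were seen in the same cell for 333 T cells under lenvatinib and 242 under combo, in 270 and 218 different Trav and Trbv pairs. The most common pair was Trav1 with Trbv20, in 13 T cells under lenvatinib and in 0 under combo. Of the 18 Trav1 cells with any Trbv UMI, 72.2% (46.5 to 90.3) had Trbv20, and of the 25 Trbv20 cells with any Trav UMI, 52.0% (31.3 to 72.2) had Trav1. Under combo only 7 Trbv20 cells had any Trav UMI, so a share of up to 42.9% is allowed by the count of 0. All 13 cells had a UMI of Gzmk, of Ccl5, a chemokine of effector T cells, of Tox, a factor of chronically stimulated T cells, and of Cd8a, and 12 were in the CD8 class, 6 of them Pdcd1+Gzmk+ and 6 Pdcd1-Gzmk+. Pdcd1 was seen in 7 of the 13, the proliferation marker Mki67 in 7, Trgv2 in 10 and Tcf7, a factor of naive and stem-like T cells, in 3. The second most common pair under lenvatinib, Trav16 with Trbv3, was in 11 cells there and in 0 under combo. Of the 11 cells 7 were Pdcd1-Gzmk- and 0 Pdcd1+Gzmk+. Trav16n, the near-identical copy of Trav16, was seen with Trbv3 in 5 cells under lenvatinib and 5 under combo. The split of cells between these 2 pairs is thus uncertain. Under combo the most common pair was Trav6-7-dv9 with Trbv12-2, in 6 cells. Since the junction was not read, cells of 1 clone and unrelated cells that use the same segments cannot be told apart.

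**Figure D4:**
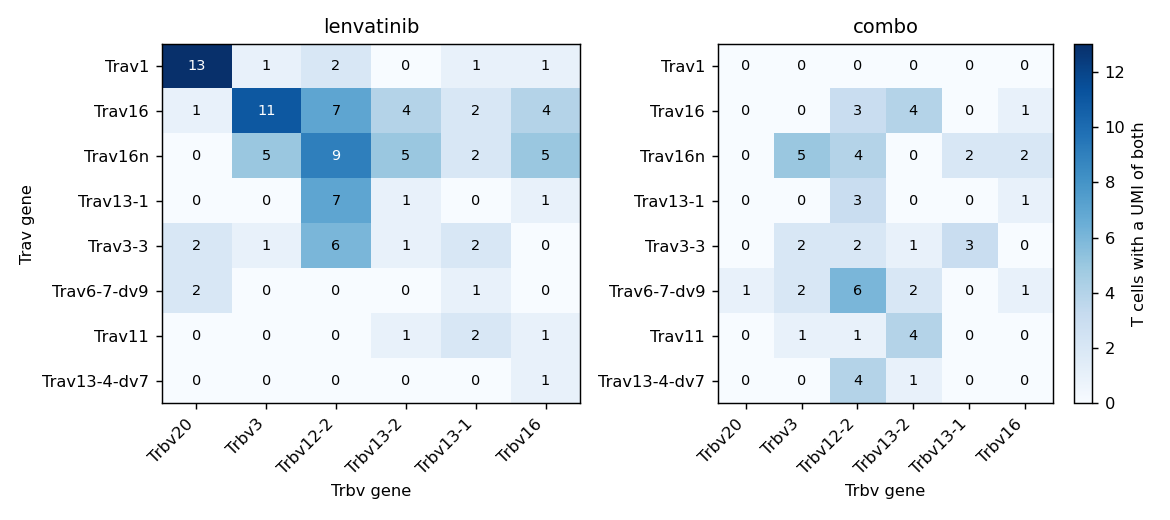
Number of T cells with a UMI of both a Trav gene (vertical) and a Trbv gene (horizontal) in each library, for genes of the common pairs and of invariant T cells. Trav1 with Trbv20 was in 13 cells under lenvatinib and 0 under combo, and no pair under combo exceeded 6 cells.

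Invariant T cells, which are common in mouse liver, use fixed alpha genes. Natural killer T cells use Trav11, mostly with Trbv13 genes, Trbv29 or Trbv1, and mucosal-associated invariant T cells use Trav1. Trav11 was in 16 T cells under lenvatinib and 26 under combo, and its copy Trav11d, 99.3% identical over the V exon, was listed at 0 UMIs. Of these cells 15 and 20 were in the class without Cd8b1, Cd4, Foxp3 and Trdc. A beta gene was seen in 5 and 8 of them, and it was one of the usual partners in 4 and 5. Klrb1c, the NK cell receptor NK1.1, had a UMI in 12 of 16 and 18 of 26 Trav11 cells. Zbtb16, the transcription factor of innate-like T cells, was seen in 2 and 6 of them and in 0 of the 13 cells with Trav1 and Trbv20. Of the 42 Trav1 T cells under lenvatinib, 36 were in the CD8 class, and under combo 1 of 5 was. In the class without markers, Trbv1 was in 5 of 284 Trbv-positive cells under lenvatinib and in 21 of 297 under combo. The ratio was 4.02 (1.09 to 18.5). Of 14 Trbv genes with at least 10 cells in a library it alone had intervals apart, and it passed this limit through combo only. Trbv1 was not seen with Trav11 in either library. Trbv13-2 was in 21 and 41 cells of that class, with overlapping intervals. Trav9n-4, named after its values were seen, was in 1 and 11 Trav-positive cells of that class and also passed the limit through combo only.

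Some cells held more than 1 V gene of a locus. This was so for 6.35% and 6.33% of Trbv-positive T cells, 10.5% and 9.35% of Trav-positive cells and 2.49% and 2.98% of Trdv-positive cells. Trbv12-2 took part in 43 of the 82 Trbv pairs within a cell under lenvatinib and in 35 of 74 under combo, and was the gene upstream on the chromosome in 35 and 27 of them. Its most common partners lay downstream of it, at distances of up to 15.8 kb. Trbv12-2 was seen with Trbv13-2, 2.03 kb downstream, in 7 and 15 cells, and under lenvatinib with Trbv13-3, 10.8 kb downstream, and with Trbv14, 15.8 kb downstream, in 8 cells each. Doublet calls covered 5.73% and 3.91% of T cells. Their part in the double detections was not tested.

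Trgv2, a gamma V gene that lies between the gamma constant genes Tcrg-C2 and Tcrg-C4, was the member with the most UMIs, and it was not limited to gamma-delta cells. It had a UMI in 448 CD8 cells under lenvatinib (13.5%) and in 340 under combo (12.9%), with 2.04 and 1.89 UMIs per positive cell and at most 19 and 12. In the Trdc class 31.6% and 30.9% of cells had it, in CD4 cells 4.55% and 3.99%, and in Foxp3 cells 5 of 413 and 0 of 57, which allows up to 5.26%. The B cell gate had 0.188% and 0.169% and an NK cell gate 0.379% and 0.360%, far below the CD8 cells.

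Within CD8 cells Trgv2 was more common with Pdcd1 than without it. With all UMIs it was in 149 of 409 Pdcd1+ cells under lenvatinib (36.4%) and in 10.3% of Pdcd1- cells, and under combo in 117 of 555 Pdcd1+ cells (21.1%) and in 10.7% of Pdcd1- cells. At 2000 UMIs per cell the Pdcd1+ share was 18.5% under lenvatinib and 9.78% under combo, a ratio of 0.53 (0.33 to 0.85), whereas the Pdcd1- shares were 4.25% and 5.17%. By subset, the thinned shares under lenvatinib were 3.02% in Pdcd1-Gzmk-, 7.79% in Pdcd1-Gzmk+, 19.4% in Pdcd1+Gzmk- and 18.1% in Pdcd1+Gzmk+ cells. Under combo they were 3.88%, 6.75%, 8.64% and 10.3% in the same order. Both libraries thus had the lowest share in cells with neither gene, and the libraries lay apart in Pdcd1+ cells.

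Of 6 other gamma genes looked at, Tcrg-C2, Tcrg-C4, Tcrg-C1 and Tcrg-V1 were seen more often in CD8 cells with Trgv2 than in those without, with intervals apart in both libraries, and Tcrg-V4 and Tcrg-V6 were each in at most 5 cells of a group. Tcrg-C2, the constant gene that Trgv2 joins, had a UMI in 73.0% and 72.9% of Trgv2-positive CD8 cells and in 8.22% and 8.94% of the Trgv2-negative ones. Tcrg-C4 was in 36.8% and 36.5% against 6.37% and 5.34%. Tox was seen in 81.0% and 58.5% of the positive and in 45.3% and 37.6% of the negative cells, and Ccr7, the homing receptor of naive T cells, in 12.9% and 9.71% against 36.9% and 23.8%. Among beta genes, Trgv2 was in 27 of the 54 CD8 cells with Trbv20 under lenvatinib and in 10 of the 72 with Trbv3. Under combo the counts were 6 of 15 and 7 of 113. The 7-base A run in the sequence given above is the longest of all members, and across the Trav and Trbv members the length of the longest A run and the number of T cells had Spearman correlations of 0.17 and -0.02, a description with no test.

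**Figure D5:**
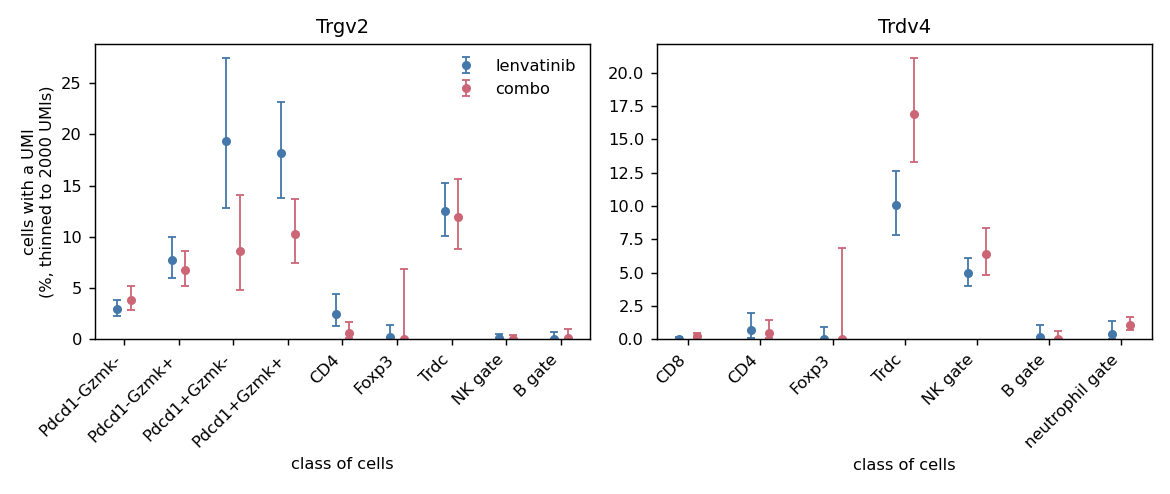
Percent of cells with a UMI of Trgv2 (left) and Trdv4 (right) after thinning to 2000 UMIs, by class and library, with exact 95% intervals as bars. Trgv2 was highest in Pdcd1+ CD8 cells under lenvatinib and in Trdc cells, and Trdv4 in Trdc cells, where it was 10.1% under lenvatinib and 16.9% under combo.

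Trdv detections were dominated by Trdv4 in the Trdc class of both libraries. The NK gate showed this too, with Trdv4 in 87.6% and 83.8% of its Trdv-positive cells. Of the Trdv-positive Trdc cells, 125 of 169 under lenvatinib (74.0%, 66.7 to 80.4) and 98 of 130 under combo (75.4%, 67.1 to 82.5) had Trdv4, the V gene of the gamma-delta cells that make IL-17 in many tissues. Trdv5 was in 17 and 17 cells, Trdv2-2 in 15 and 11 and Trdv1 in 17 and 6. Trdv5 overlaps Trdc by 207 bases on the opposite strand, and the use of strand in counting was not given in the sources used here. Reads from that stretch may therefore not be told apart. Trdv4 and Trdv2-2 end 67.3 kb and 181 kb before Trdc. As a share of Trdc cells thinned to 2000 UMIs, Trdv4 was in 66 of 656 and 64 of 378, a ratio of combo to lenvatinib of 1.68 (1.05 to 2.68). The share of NK marker cells in the Trdc class moved with this, since Ncr1 was in 32.9% and 22.6% and Klrb1c in 48.4% and 41.3% of its cells, and their part in the ratio was not tested.

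Cells with Trdv4 carried the marks of the IL-17 lineage. Il17a had a UMI in 44.0% and 42.9% of Trdv4-positive Trdc cells and in 9.82% and 6.97% of Trdv4-negative ones, and Cd163l1, the surface receptor Scart1 of these cells, in 68.8% and 74.5% against 6.91% and 5.57%. Tcrg-V6, the gamma gene known to pair with Trdv4, was in 25 of 125 and 27 of 98 of the positive cells and in 5 of 550 and 2 of 287 of the negative cells. Tcrg-C1 was in 70.4% and 84.7% against 37.6% and 36.9%, and Zbtb16 in 44.0% and 32.7% against 8.0% and 4.88%. Both libraries showed the same set of marks on Trdv4-positive cells. Among alpha genes with dv in the symbol, Trav13-4-dv7 led the Trdc class with 22 of 75 Trav-positive cells (29.3%) and 14 of 46 (30.4%), followed by Trav15-1-dv6-1 with 6 and 8 and Trav15-2-dv6-2 with 6 and 8. In CD8 cells, by contrast, Trav16n and Trav16 led.

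The CD4 and Foxp3 classes held few V gene-positive cells. In CD4 cells Trbv12-2 led with 12 of 67 Trbv-positive cells (17.9%) under lenvatinib and 20 of 116 (17.2%) under combo, followed by Trbv13-2 with 11 and 14. Their alpha genes were led by Trav3-3 with 11 of 73 cells under lenvatinib and Trav13-1 with 10 of 124 under combo. Foxp3 cells, the regulatory T cells, were led by Trbv2 with 10 of 40 cells (25.0%, 12.7 to 41.2) under lenvatinib, and under combo Trbv2 and Trbv20 were each in 3 of 13. The alpha gene in most Foxp3 cells under lenvatinib was Trav9-4 with 9 of 87 Trav-positive cells. Between the libraries, only genes with at least 10 cells in a library were compared in these classes. These were 6 Trbv and 2 Trav genes in CD4 cells and 1 Trbv gene in Foxp3 cells. None of them had intervals apart. With 57 Foxp3 cells under combo, differences in that class were not detectable at this depth.

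The members were last set against all other genes, by the ratio of the thinned share of cells with a UMI, for genes with at least 10 such cells in 1 of the groups. Between the libraries in CD8 cells, 6 of 21 members were over 1.5-fold higher under combo (Trbv3, Trbv14, Trbv15, Trbv16, Trav14d-3-dv8 and Trav19) and 6 over 1.5-fold lower (Trbv1, Trbv13-1, Trbv13-3, Trbv20, Trav1 and Trav14-2). Of all 11269 genes, 8.23% were higher and 15.7% lower past this fold. Among genes in 10 to 60 cells, which hold 20 of the 21 members and the same 6 and 6, the shares past this fold were larger, 19.2% and 22.2%. Between Pdcd1+ and Pdcd1- cells under lenvatinib, 5 of 13 members were higher and 6 lower, against 16% and 13% of 10730 genes. Among genes in 10 to 60 cells the counts were 4 and 6 of 12 members, against 27.2% and 25.8%. Under combo 3 of 6 members were higher and 1 lower, against 9.65% and 10.9% of 10240 genes, and 2 and 1 of 5 against 18.4% and 20.6% in the sparse range. Median ratios were taken after a small constant was added to each count of cells, which moves the ratios of scarce genes. They were 0.914 over all genes and 1.02 over the members between the libraries. By Pdcd1 they were 1.11 and 0.941 under lenvatinib and 1.05 and 1.49 under combo. Members passed the fold in both directions in all 3 comparisons, and nothing particular to the members is read from counts this small.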

How the data were processed

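Processed counts of 2 droplet-based 3′ scRNA sequencing libraries were used. The deposited values are whole UMI counts for each gene and barcode, which the authors mapped to mm10 and did not normalize. The methods and the submitters' processing notes name Cell Ranger 5.0.1 and the matrix headers name 6.0.1. The members and the gene lists were chosen with earlier results of these data known.

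Cells with over 6000 genes or over 25% mitochondrial UMIs were removed, which left 14201 and 11613 cells, and doublets, which Scrublet (scanpy 1.11.5, expected rate 6%) called in 4.46% and 2.76% of cells, were kept. T cells were gated on Cd3 UMIs. CD4 cells had a Cd4 UMI and none of Cd8b1, Foxp3 or Trdc, Foxp3 cells a Foxp3 UMI and none of Cd8b1 or Trdc, and Trdc cells a Trdc UMI and none of Cd8b1, Cd4 or Foxp3. The B cell gate had at least 2 UMIs of Cd79a and Cd79b, the neutrophil gate at least 2 of Retnlg and Csf3r, and the NK gate, added after the data were seen, at least 2 of Ncr1 and Klrb1c, each without Cd3 UMIs. Where shares of cells were compared across depths, cells were thinned to 2000 UMIs, which leaves few cells with a UMI of a scarce gene. Exact 95% Clopper-Pearson intervals came from scipy 1.17.1 and Python 3.11.15, and a ratio's range divides the opposite ends of both intervals. With 1 library per treatment no p-value was computed, and cells are not replicates. Positions and sequences came from GENCODE M21.

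The genes named were the 8 in most T cells of each locus, the 3 Trbv and 3 Trav genes with the largest and the smallest usage ratio between the libraries in CD8 cells among those with at least 20 cells in 1 library, the 3 leading genes of each class, the 2 Trbv genes with the largest and smallest ratio by Pdcd1 in each library among those with at least 10 cells, the genes of invariant T cells, and all Trgv, Trdv and dv genes. Trav2, Trav7-5 and Trav9n-4 were added after their values were seen.

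On simulated counts for 32285 genes in the CD8 comparison of the libraries, 94% of genes raised 2-fold and 96% of those lowered 2-fold passed the 1.5-fold limit, as did 96% and 100% at 3-fold and 7.33% of unchanged genes. The changed genes were drawn from the more abundant genes, and all cells of a simulated library shared a single expression profile. These rates therefore do not give the rates for sparse genes, which most of the members tested were. Alternatives covered the Cd3 and mitochondrial limits, doublets, the UMIs needed per V gene, cells with 2 V genes, overlapping classes, Cd8a in place of Cd8b1, usage by UMIs, thinning depth, shared barcodes, the Shannon index and the minimum number of cells. Leaving out cycling cells or Trav1 cells was added after the data were seen.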

Additional observations from a re-analysis of the deposited data

Results flagged for a closer look

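For 4 genes, usage in CD8 cells was higher with Pdcd1 than without it under lenvatinib, with intervals apart, and had a ratio below 1 under combo. All 4 combo ranges held 1, so they show no direction, and the difference between the libraries was not tested. The ratio of usage in Pdcd1+ to Pdcd1- cells was 2.99 under lenvatinib and 0.210 under combo for Trbv20, 2.39 and 0.979 for Trbv13-3, 5.37 and 0 for Trav1, and 3.96 and 0.452 for Trav7-5. The combo ranges were 0.0032 to 2.09, 0.155 to 4.72, 0 to 518 and 0.0059 to 5.69 in the same order, and the values rest on 1, 4, 0 and 1 Pdcd1+ cells and on 14, 12, 1 and 8 Pdcd1- cells.

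Delta V genes were seen outside the T cells, in a gate of NK cells (1849 cells under lenvatinib and 833 under combo) that had no Cd3d, Cd3e or Cd3g UMI. Trdv4 had a UMI in 15.7% of NK gate cells under lenvatinib (290 cells) and in 19.9% under combo (166 cells), and Trdv2-2 in 2.65% (49 cells) and 5.04% (42 cells). The B cell gate had Trdv4 in 1.31% and 0.169% of cells and Trdv2-2 in 1 of 533 and 0 of 593. Positive NK gate cells held 1.21 and 1.25 Trdv4 UMIs each, against 3.23 and 4.36 in the Trdc class, and Trdc itself had a UMI in 26.7% and 26.8% of the NK gate.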

How the results depend on the processing

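Of 276 values under alternative settings for 34 results, 242 stayed within the counting interval or, for counts and effective numbers, within 1.5-fold. Another 33 moved and 1 reversed. Direction was checked only for ratios whose main range did not hold 1. The Trbv12-2 ratio between the libraries in CD8 cells, 0.96 in the main setting, reached 1.28 in an alternative. The mitochondrial limit of 10%, doublet removal, cells with a single V gene, Cd8a as the CD8 marker, a thinning depth of 4000, removal of shared barcodes, the Shannon index and removal of Trav1 cells moved none of the results they applied to. For the Shannon index these were the effective numbers of all CD8, Pdcd1+Gzmk+ and Pdcd1-Gzmk- cells only. The ratio ranges were less stable than the ratios. That of Trbv13-3 by Pdcd1 under lenvatinib held 1 with doublets removed, with a single V gene per cell, with Cd8a and by UMIs, whereas that of Trbv12-1 by Pdcd1 under combo no longer held 1 under the last 3 of these. Asking for at least 2 UMIs of a V gene moved most, since few cells remained, and the ranges of Trbv3, Trbv20, Trbv13-3 and Trav1 between the libraries then all held 1. It reversed the Trbv13-3 ratio by Pdcd1 under lenvatinib to 0.911. It gave a Trbv13-3 ratio of combo to lenvatinib of 0, a Trbv12-1 ratio by Pdcd1 under combo of 9.63, Trbv3 usage in Pdcd1-Gzmk+ cells of 24.0% and 36.7%, an effective number of 3.39 in Pdcd1+Gzmk+ cells under lenvatinib, Trbv12-2 in 0% of CD4 cells under lenvatinib, Trdv4 usage of 92.5% and 94.7%, and Trgv2 in 12.4% and 13.2% of Trdc cells. The members past 1.5-fold then numbered 0 higher and 0 lower between the libraries, 1 and 0 by Pdcd1 under lenvatinib and 1 and 0 under combo. With at least 4 Cd3 UMIs, Trgv2 was in 36.7% of Trdc cells under lenvatinib, 3 members were higher by Pdcd1 under lenvatinib and 2 lower under combo. With overlapping classes Trgv2 was in 27.7% of Trdc cells under lenvatinib, and by UMIs the Trdv4 usage was 87.8% and 91.8%. Without thinning, 15 members were lower under combo, 10 were higher and 18 lower by Pdcd1 under lenvatinib, and 11 and 4 under combo. With a minimum of 5 cells the counts were 12 higher and 15 lower between the libraries, 15 lower by Pdcd1 under lenvatinib, and 9 higher and 5 lower under combo. Without cycling cells the Trav1 ratio was 0. Usage by UMIs gives no value for Trgv2 or for the pair of Trav1 and Trbv20, nor does the single V gene setting for Trgv2, so these were not run. No paired analysis was possible because there is 1 library per treatment. Depth limits every value here, since most T cells had no V gene UMI.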
